A study of Mus musculus with 12 samples.

Results

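The genes described here encode axon guidance cues and their receptors: the secreted ligands Slit2 and Slit3, the Slit receptors Robo1 and Robo2, the semaphorins Sema3a, Sema3c, Sema3e and Sema7a, and the semaphorin co-receptors Nrp1 and Nrp2. These 10 genes were chosen from earlier results on the same libraries, so their differences between groups are given as descriptions, with no test. They are 10 of 23282 gene symbols in the count files, and 6 of the 10 were among the 12425 genes that passed the filter on low counts. RNA was measured by QuantSeq 3′ mRNA-seq, a method that counts poly(A) transcripts from their 3′ ends, in C22 cells, a club cell line conditionally immortalized with a temperature-sensitive T antigen from H-2Kb-tsA58 transgenic mice. The 12 libraries formed 4 groups of 3: negative control cells (NC), NC cells exposed over 24 h to TGF-β1 at 20 ng/ml (NC + TGF-β1), cells in which Pdcd5 was knocked down with siRNA (siPdcd5), and knockdown cells given the same TGF-β1 treatment (siPdcd5 + TGF-β1). All 4 groups came from the same immortalized line and were serum starved for 2 h. Neither the labels nor the study's methods say whether replicates were separate cultures, so that p-values measure only the spread between these samples, which may be technical.

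Slit proteins are secreted matrix-associated ligands that repel growing axons and migrating cells through Robo receptors. Class 3 semaphorins are secreted ligands that act through plexins, for most of them with a neuropilin as the binding partner, and Sema3e can bind the plexin encoded by Plxnd1 without a neuropilin. Sema7a is held on the cell surface by a lipid anchor and signals through integrins and the plexin encoded by Plxnc1. In the lung these families take part in branching of the airways, vessel patterning and leukocyte migration, and neuropilins also bind VEGF and TGF-β1.

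The promoters of the 4 members that passed the threshold for a fall in more than 1 comparison are shown because Slit2 and Sema3a were lower after the knockdown and Sema3c and Sema3e were lower after TGF-β1. Each sequence is the 250 bases before the RefSeq transcription start, read 5′ to 3′ on the plus strand of GRCm38.p6, with any CAGAC or its reverse complement GTCTG, the core letters bound by Smad3, in capitals. The Slit2 window is chr5:47982905-47983154, the Sema3a window chr5:13396534-13396783, the Sema3c window chr5:17574566-17574815 and the Sema3e window chr5:14025026-14025275. The RefSeq start of Sema3a lies inside the longer gene model of the GENCODE annotation.
Slit2: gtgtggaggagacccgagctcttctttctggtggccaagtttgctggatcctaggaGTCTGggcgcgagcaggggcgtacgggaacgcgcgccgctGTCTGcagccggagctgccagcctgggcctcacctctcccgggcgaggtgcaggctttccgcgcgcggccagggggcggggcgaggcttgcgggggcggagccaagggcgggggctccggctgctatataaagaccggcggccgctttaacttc
Sema3a: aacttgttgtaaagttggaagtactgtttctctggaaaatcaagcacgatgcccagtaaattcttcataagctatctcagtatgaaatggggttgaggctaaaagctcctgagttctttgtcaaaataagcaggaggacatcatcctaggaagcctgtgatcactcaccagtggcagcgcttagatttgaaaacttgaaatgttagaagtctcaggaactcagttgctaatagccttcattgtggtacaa
Sema3c: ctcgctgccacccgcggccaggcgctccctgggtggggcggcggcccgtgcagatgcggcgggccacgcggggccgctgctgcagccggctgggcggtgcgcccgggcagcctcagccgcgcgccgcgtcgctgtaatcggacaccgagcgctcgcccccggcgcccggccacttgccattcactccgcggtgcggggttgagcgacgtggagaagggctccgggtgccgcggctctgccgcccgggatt
Sema3e: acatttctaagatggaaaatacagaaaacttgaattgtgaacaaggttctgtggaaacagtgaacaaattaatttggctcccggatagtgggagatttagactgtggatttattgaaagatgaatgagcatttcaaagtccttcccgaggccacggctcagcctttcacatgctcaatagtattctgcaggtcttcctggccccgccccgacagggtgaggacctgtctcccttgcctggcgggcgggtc
The Slit2 window held 2 matches, and the 3 semaphorin windows held 0 matches. Of 32851 mouse promoter windows of the same length, 42.2% held at least 1 match on either strand. A second set of letters bound by Smad proteins, GGCGC or its reverse complement GCGCC, occurred 2 times in the Slit2 window and 5 times in the Sema3c window and in 32.0% of all windows, and it was not found in the Sema3a and Sema3e windows. The letters CTTTG or CAAAG, the core of the motif bound by TCF and LEF factors, occurred 1 time each in the Sema3a and Sema3e windows, 0 times in the Slit2 and Sema3c windows, and in 48.6% of all windows. The Slit2 and Sema3c windows were rich in G and C, with 69.6% and 78.4%, whereas the Sema3a and Sema3e windows held 40.8% and 48.0%, against a median of 52.4% over all windows. The pair lower after the knockdown and the pair lower after TGF-β1 therefore each joined 1 promoter rich in G and C with 1 that was not.

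The 3 class 3 semaphorins among the members lie on the plus strand of chromosome 5, Sema3a at chr5:13125414-13602565, Sema3e at chr5:14025276-14256689 and Sema3c at chr5:17574281-17730268 in GRCm38. Sema3b and Sema3f, class 3 semaphorins outside the members, also passed the filter, and their positions are not given here. Sema3d, a class 3 semaphorin at chr5:12383385-12588948, did not pass the filter on low counts. Slit2 lies on the same chromosome at chr5:47983138-48307733. Nrp1 is at chr8:128358604-128503363, Nrp2 at chr1:62703285-62818695, Slit3 at chr11:35121224-35708507, Robo1 at chr16:72308306-73046095, Robo2 at chr16:73891839-74411825 on the minus strand, and Sema7a at chr9:57940112-57962865. Slit2 overlaps 7 other annotated genes, and 0 of them share an exon with it. An exon of Nrp1 overlaps the microRNA gene Mir1903 on the same strand, so that reads in that stretch cannot be told apart. The stretch, chr8:128359241-128359320, lies near the 5′ start of Nrp1, whereas these libraries count transcripts from their 3′ ends. The introns of Slit2 and Slit3 each hold a hairpin of the microRNA miR-218, and its mature sequence is shown because both genes carry the same one, at chr5:48223966-48223986 and at chr11:35616840-35616860 on the plus strand, with the seed, bases 2 to 8, in capitals.
mmu-miR-218-5p: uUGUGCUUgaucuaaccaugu
Mature microRNAs carry no poly(A) tail, and miR-218 was not measured here.

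Total counts ranged from 12809857 to 17714828 per library. Levels are given as CPM, the counts scaled to the library size. Pdcd5, the knockdown target, was at 65.1 to 73.5 CPM in NC and at 20.0 to 22.1 CPM in siPdcd5 (log2 fold change −1.69, standard error (SE) 0.10, edgeR quasi-likelihood test, Benjamini-Hochberg adjusted p = 1.09e-06). With TGF-β1 it was at 66.3 to 69.7 CPM in NC + TGF-β1 and at 21.8 to 26.3 CPM in siPdcd5 + TGF-β1 (log2 fold change −1.49, SE 0.10, edgeR adjusted p = 5.47e-06). The defining club cell markers Scgb1a1, Scgb3a1, Scgb3a2, Cyp2f2 and Nkx2-1 were at 0 to 5 counts in every library, and 0 of these 5 genes passed the filter. Of the 5 epithelial markers, Epcam had at most 1 count, Cdh1 lay at 1.91 to 4.03 CPM and Krt7 at 1.48 to 3.56 CPM. By contrast Krt8 ranged from 171 to 524 CPM and Krt18 from 373 to 1199 CPM. The summed level of 8 fibroblast markers, led by Col1a1, was 3761 to 4005 CPM in NC, 7447 to 8065 CPM in NC + TGF-β1, 2562 to 3137 CPM in siPdcd5 and 5613 to 5972 CPM in siPdcd5 + TGF-β1. NC + TGF-β1 replicate 2 and siPdcd5 replicate 1 stood apart within their groups, with a root mean square difference over genes that averaged 0.53 and 0.46 log2 units to the other 2 libraries of the group, against 0.37 and 0.34 between those 2.

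In NC cells the secreted semaphorins Sema3c and Sema3e were lower after TGF-β1 and the co-receptor Nrp2 was higher. The threshold of an adjusted p under 0.05 in the fit over 12425 genes is used for the members only to say how they were called, not as a test of them. Of the 6 members that passed the filter, 1 was higher and 2 were lower past that threshold, and 8.57% of all genes tested were higher and 6.77% lower. In siPdcd5 cells TGF-β1 gave 0 members higher and 2 lower, again Sema3c and Sema3e, and 8.50% of all genes were higher and 7.61% lower. The knockdown gave 0 members higher and 2 lower, Slit2 and Sema3a, both without and with TGF-β1. Without TGF-β1 0.901% of all genes were higher and 2.54% lower after the knockdown, and with TGF-β1 0.330% were higher and 1.22% lower. The last shares are 41 and 151 genes, which became 51 and 110 with quantile normalization and limma-trend, 6 and 38 with the 6 libraries compared, and 343 and 713 without the 2 libraries that stood apart. Without that pair the genes called numbered 3648 against 1906 after TGF-β1 in NC cells, 3122 against 2002 in siPdcd5 cells, and 1144 against 427 after the knockdown without TGF-β1. The pair was chosen after the data were seen, and more genes were called in each comparison without it. A member past the threshold only without that pair is therefore given as a description. Because the members were selected on these contrasts, nothing is read from their counts against those shares. Statements below that groups did or did not overlap are descriptions too, and the share of all genes without overlap is not given here. Each TGF-β1 comparison shares 1 group of libraries with each knockdown comparison, so that their values are not independent.

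**Figure D1:**
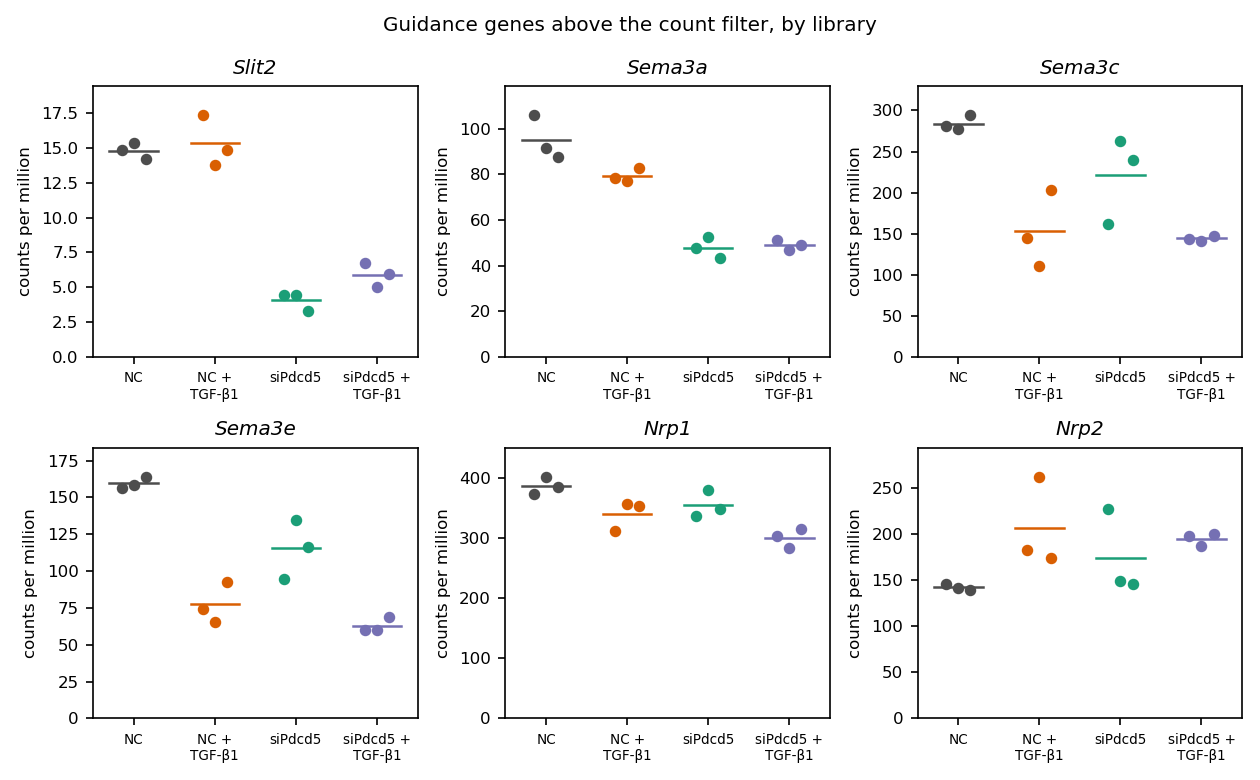
CPM (vertical axis, linear from 0) of the 6 guidance genes that passed the filter, in each of the 12 libraries (points), with the mean of the 3 libraries of a group as a line. Slit2 and Sema3a were low in both knockdown groups, Sema3c and Sema3e were low in both TGF-β1 groups, Nrp1 lay between 284 and 403 CPM throughout, and Nrp2 was highest in a single library of NC + TGF-β1.

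Slit2, the Slit ligand read in these cells, was the member with the widest range. Its level was 14.8, 15.4 and 14.2 CPM in NC replicates 1 to 3 and 17.4, 13.8 and 14.8 CPM in NC + TGF-β1. It was 4.43, 4.47 and 3.28 CPM in siPdcd5 and 6.71, 5.01 and 5.92 CPM in siPdcd5 + TGF-β1. The 6 knockdown libraries lay below the 6 NC libraries with no overlap, and these levels rest on 51 to 100 counts in the knockdown libraries and 184 to 218 counts in the others. In bulk RNA, fewer cells that express a gene and less of its RNA per cell cannot be told apart. After the knockdown Slit2 was 3.64-fold lower without TGF-β1 (log2 fold change −1.86, SE 0.17) and 2.60-fold lower with TGF-β1 (−1.38, SE 0.16). TGF-β1 left Slit2 within the spread of the replicates in NC cells (log2 fold change 0.05, SE 0.15, 95% interval −0.28 to 0.38). In siPdcd5 cells the TGF-β1 libraries lay above the untreated ones with no overlap, by 0.54 (SE 0.18) on the log2 scale, which was not past the threshold over all genes. Without NC + TGF-β1 replicate 2 and siPdcd5 replicate 1 this difference was 0.60 and past the threshold. The order of the group levels was therefore NC and NC + TGF-β1, which overlapped, then siPdcd5 + TGF-β1, then siPdcd5. The fibroblast marker sum was also lower after the knockdown, and unlike Slit2 it was higher after TGF-β1 in NC cells. That sum was mostly Col1a1 and Col3a1, and other markers of the list went the other way after the knockdown. Dcn had means of 95.7 CPM in NC and 144 CPM in siPdcd5, and Col1a2 had 47 to 48 and 152 to 205 counts per library. The mean of Pdgfrb was also higher, at 15.2 and 19.7 CPM, but its libraries overlapped. The mean of Pdgfra was lower, at 5.90 and 5.41 CPM. After TGF-β1 in NC cells the markers were also split. The means of Dcn and Pdgfra were lower, at 95.7 and 22.6 CPM and at 5.90 and 4.61 CPM. Those of Col1a2 and Pdgfrb were higher, at 3.58 and 24.7 CPM and at 15.2 and 30.1 CPM. The part of these markers in the Slit2 difference was not tested.

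The other Slit and Robo members were barely detected. Slit3, the other Slit ligand among the members, had 2, 3 and 6 counts in NC, 0, 2 and 3 counts in NC + TGF-β1, 1, 0 and 0 counts in siPdcd5, and 0 counts in each siPdcd5 + TGF-β1 library. The receptor Robo1 had 1 count each in NC replicates 1 and 3 and 0 counts in the other 10 libraries. The receptor Robo2 had 0, 0 and 1 counts in NC, 0, 1 and 1 in NC + TGF-β1, 2, 2 and 0 in siPdcd5, and 0, 1 and 0 in siPdcd5 + TGF-β1. A count of 0 allows a level of up to 3 counts, which is 0.165 to 0.239 CPM in these libraries for counting error alone, and no fold was computed at such counts. The receptor transcripts of Slit ligands named among the members thus had 0 to 2 counts in every library, and the limit for a count of 0 does not cover libraries with 1 or 2. Of the Robo receptors outside the members, Robo3, a divergent member of the family, passed the filter at 16.8 to 23.3 CPM and was not past the threshold in any comparison, whereas Robo4 did not pass it. The ligand Slit1 did not pass the filter either, with 0 to 14 counts.

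Sema7a, the surface-anchored semaphorin, was also below the filter. It had 1, 4 and 6 counts in NC, 3, 3 and 2 counts in NC + TGF-β1, 3, 0 and 0 counts in siPdcd5, and 6, 7 and 7 counts in siPdcd5 + TGF-β1. The siPdcd5 + TGF-β1 libraries held more counts than the siPdcd5 libraries with no overlap, and 0 to 7 counts per library do not allow a fold or a test at this depth.

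**Figure D2:**
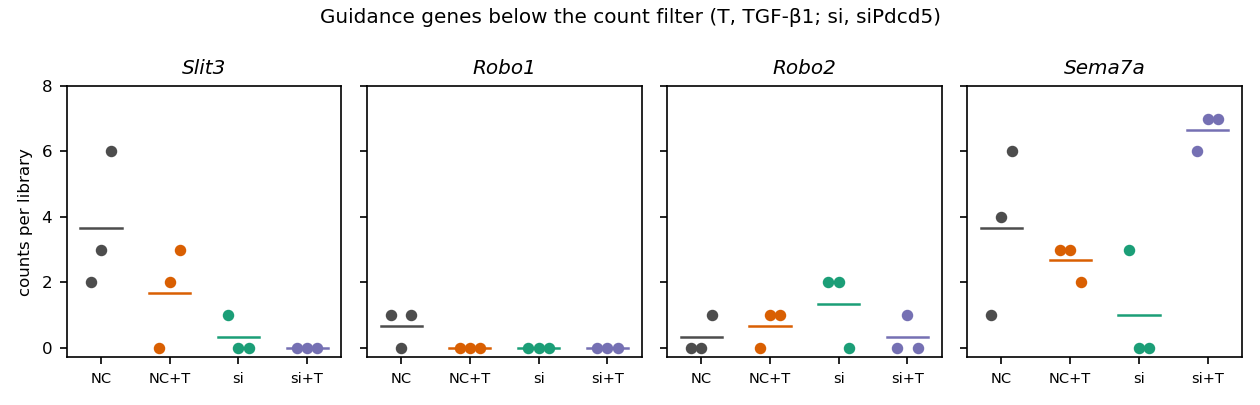
Counts per library (vertical axis, linear) of the 4 guidance genes below the count filter, with each library as a point and the mean of the 3 libraries of a group as a line. None of the 12 libraries held more than 7 counts of Slit3, Robo1, Robo2 or Sema7a, and Slit3 was at 0 counts in the 3 siPdcd5 + TGF-β1 libraries.

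Sema3a, the class 3 semaphorin that collapses growth cones through Nrp1, followed the knockdown. Its level was 106, 91.6 and 87.5 CPM in NC, 78.5, 77.1 and 83.0 CPM in NC + TGF-β1, 47.7, 52.4 and 43.5 CPM in siPdcd5, and 51.1, 47.1 and 48.9 CPM in siPdcd5 + TGF-β1. The 6 knockdown libraries lay below the 6 NC libraries with no overlap. After the knockdown Sema3a was 1.99-fold lower without TGF-β1 (log2 fold change −0.99, SE 0.10) and 1.62-fold lower with TGF-β1 (−0.70, SE 0.10). In NC cells the TGF-β1 libraries lay below the untreated ones with no overlap, by 0.26 (SE 0.10) on the log2 scale, which was not past the threshold. In siPdcd5 cells the TGF-β1 and untreated libraries overlapped (log2 fold change 0.03, SE 0.10, 95% interval −0.18 to 0.25).

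Sema3e, whose receptor is the plexin Plxnd1, followed TGF-β1. Its level was 157, 159 and 164 CPM in NC, 74.1, 65.3 and 92.7 CPM in NC + TGF-β1, 94.7, 135 and 116 CPM in siPdcd5, and 59.9, 60.2 and 69.0 CPM in siPdcd5 + TGF-β1. NC stood highest, siPdcd5 next and the TGF-β1 groups lowest, and of neighbours in this order NC + TGF-β1 and siPdcd5 + TGF-β1 overlapped. After TGF-β1 Sema3e was 2.07-fold lower in NC cells (log2 fold change −1.05, SE 0.14) and 1.83-fold lower in siPdcd5 cells (−0.87, SE 0.14). After the knockdown Sema3e differed by −0.47 (SE 0.14) without TGF-β1, with no overlap between the groups, and by −0.30 (SE 0.14) with TGF-β1, with overlap, and neither was past the threshold. Without the 2 libraries that stood apart these differences were −0.35 and −0.40, and both were past the threshold, and without NC + TGF-β1 replicate 3 the second was −0.15.

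Sema3c, which like Sema3a is a neuropilin-binding semaphorin and is known for its role in the patterning of the heart outflow tract, was also lower after TGF-β1. Its level was 281, 277 and 294 CPM in NC and 144, 110 and 204 CPM in NC + TGF-β1. It was 161, 262 and 240 CPM in siPdcd5 and 144, 142 and 147 CPM in siPdcd5 + TGF-β1. NC + TGF-β1 and siPdcd5 were spread widely, with SDs of 47.2 and 53.1 CPM (n = 3 each), against 9.20 CPM in NC and 3.01 CPM in siPdcd5 + TGF-β1. The lowest values of the first pair of groups were those of NC + TGF-β1 replicate 2 and siPdcd5 replicate 1, the libraries that stood apart. After TGF-β1 Sema3c was 1.86-fold lower in NC cells (log2 fold change −0.90, SE 0.19) and 1.54-fold lower in siPdcd5 cells (−0.62, SE 0.19), with no overlap in either. The difference in siPdcd5 cells was past the threshold in 3 of the 12 fits that left out 1 library, those without NC + TGF-β1 replicate 2, NC + TGF-β1 replicate 3 or siPdcd5 replicate 1, and it ranged from −0.79 to −0.48. After the knockdown Sema3c differed by −0.36 (SE 0.19) without TGF-β1, with no overlap, and by −0.08 (SE 0.19) with TGF-β1, with overlap, and neither was past the threshold. Without the 2 libraries that stood apart these differences were −0.18 and −0.27, and without NC + TGF-β1 replicate 3 alone the second turned to 0.18.

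**Figure D3:**
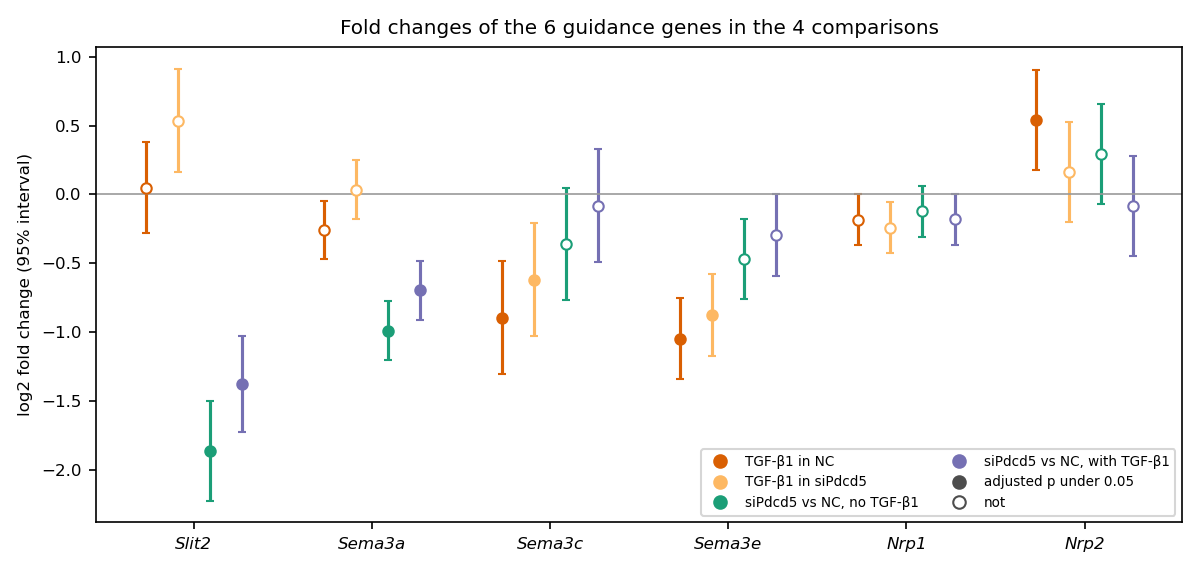
Log2 fold changes (points, vertical axis) with 95% intervals (bars) of the 6 guidance genes in the 4 comparisons, filled where the adjusted p over all genes was under 0.05. The filled points after the knockdown are Slit2 and Sema3a, from −1.86 to −0.70, and those after TGF-β1 are Sema3c and Sema3e, from −1.05 to −0.62, and Nrp2 at 0.54.

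The group means of the neuropilins spanned 0.36 (Nrp1) and 0.51 (Nrp2) log2 units, against 0.98 to 1.89 for the 4 member ligands above the filter. Nrp1, the co-receptor of Sema3a, was at 373, 403 and 385 CPM in NC, 311, 357 and 354 CPM in NC + TGF-β1, 338, 381 and 348 CPM in siPdcd5, and 304, 284 and 315 CPM in siPdcd5 + TGF-β1. The TGF-β1 libraries lay below the untreated ones with no overlap in both NC cells (log2 fold change −0.18, SE 0.09) and siPdcd5 cells (−0.24, SE 0.09), and neither difference was past the threshold. Without the 2 libraries that stood apart the differences were −0.23 and −0.28, and both were past it. After the knockdown the groups overlapped, with differences of −0.12 (SE 0.09) without and −0.18 (SE 0.09) with TGF-β1.

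Nrp2, which binds Sema3c and Sema3f and the lymphatic VEGF ligands, was at 146, 142 and 139 CPM in NC and 182, 263 and 175 CPM in NC + TGF-β1. It was 228, 150 and 146 CPM in siPdcd5 and 198, 187 and 200 CPM in siPdcd5 + TGF-β1. In NC cells the TGF-β1 libraries lay above the untreated ones with no overlap, by 1.45-fold (log2 fold change 0.54, SE 0.17), past the threshold. It was past the threshold in 5 of the 12 fits that left out 1 library, those without NC + TGF-β1 replicate 1 or 3 or without any 1 of the siPdcd5 libraries. Without NC + TGF-β1 replicate 2, the highest library, the difference was 0.33 and was not past the threshold, and with upper-quartile factors or quantile normalization it was 0.51 and 0.45 and not past it either. In siPdcd5 cells the groups overlapped (log2 fold change 0.16, SE 0.17), where siPdcd5 replicate 1 at 228 CPM was the highest of the 6. That difference was 0.41 without siPdcd5 replicate 1 and 0.06 and 0.05 without siPdcd5 replicates 2 and 3. Without both libraries that stood apart Nrp2 was higher after TGF-β1 by 0.32 in NC cells and by 0.40 in siPdcd5 cells on the log2 scale, and both were past the threshold. The knockdown groups overlapped with the NC groups at 0.29 (SE 0.17) without and −0.08 (SE 0.17) with TGF-β1. The first was 0.05 without siPdcd5 replicate 1, and the second turned to 0.13 without NC + TGF-β1 replicate 2, with the same values to 2 decimals when both were left out.

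Whether the knockdown altered the response to TGF-β1 was read from the interaction, the log2 fold change by TGF-β1 in siPdcd5 cells minus that in NC cells. It was 0.49 (SE 0.23) for Slit2, 0.29 (SE 0.14) for Sema3a, 0.28 (SE 0.27) for Sema3c, 0.17 (SE 0.19) for Sema3e, −0.06 (SE 0.12) for Nrp1 and −0.38 (SE 0.24) for Nrp2. Of these members 0 were past the threshold, and 0% of all genes were. The edgeR test gave 0 genes at an adjusted p under 0.05, 638 at an unadjusted p under 0.05, and DESeq2 gave 15 genes. Without the 2 libraries that stood apart edgeR gave 200 genes, 71 higher and 129 lower, and 0 of them were members. The 95% interval of the interaction ran from −0.01 to 0.99 for Slit2 and from −0.24 to 0.59 for Sema3e. For Nrp2 the interaction was −0.12 without siPdcd5 replicate 1, and without both libraries that stood apart it was 0.09.

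The genes whose pattern over the 12 libraries was nearest to that of a member were found by the root mean square difference of log2 CPM after each gene was centred on its mean, for the members whose group means spanned at least 1 log2 unit, Slit2 and Sema3e. Sema3a and Sema3c spanned 0.99 and 0.98 log2 units and were not searched. Of 9127 well-expressed genes the nearest to Slit2 was Pdcd5, the knockdown target, at a difference of 0.21, followed by Fbln5, an elastic fibre protein, at 0.26 and Fmod, a small proteoglycan that binds collagen fibrils, at 0.41. The median over those genes was 0.87. Fbln5 was at 33.9 to 39.0 CPM in NC and 10.8 to 11.9 CPM in siPdcd5, and Fmod at 11.6 to 16.2 CPM and 5.68 to 7.15 CPM. With TGF-β1, Fbln5 was at 50.2 to 53.6 CPM in NC cells and 19.0 to 22.2 CPM in siPdcd5 cells, so that in NC cells its TGF-β1 libraries lay above the untreated ones, where those of Slit2 overlapped.

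The nearest genes to Sema3e were Gpm6a, a neuronal membrane glycoprotein, at 0.10, Magi3, a scaffold protein of cell junctions, at 0.13, and Gpc6, a glypican of the cell surface, at 0.13, with a median of 0.58 over the same genes. Gpm6a was at 566 to 647 CPM in NC, 260 to 325 CPM in NC + TGF-β1, 345 to 474 CPM in siPdcd5 and 226 to 237 CPM in siPdcd5 + TGF-β1. Magi3 was at 295 to 332 CPM in NC and 134 to 158 CPM in NC + TGF-β1, and Gpc6 at 23.9 to 26.9 CPM and 11.5 to 15.1 CPM. The 12 points of each gene share their libraries, and the likeness is a description.

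**Figure D4:**
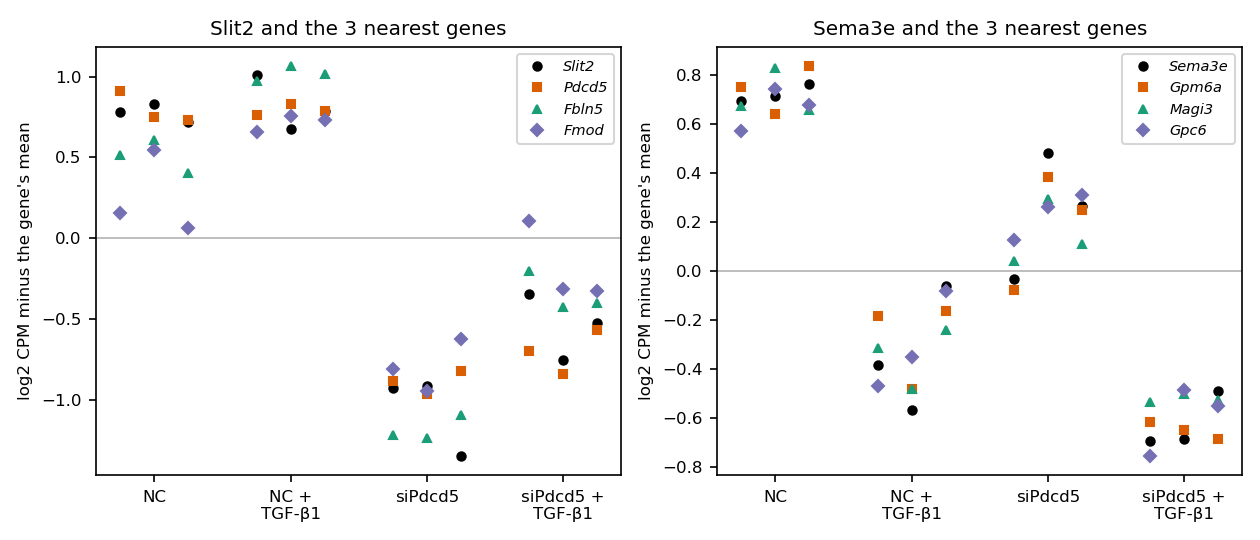
Log2 CPM minus the gene's own mean (vertical axis) in each of the 12 libraries, with the 3 libraries of a group side by side in replicate order, for Slit2 and Sema3e and for the 3 nearest genes of each. Pdcd5, Fbln5 and Fmod were low with Slit2 in the knockdown groups, and Gpm6a, Magi3 and Gpc6 were low with Sema3e in the TGF-β1 groups and between in siPdcd5.

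Of 84 other axon guidance genes on a list by role, 54 passed the filter, among them 8 of 9 plexins and 9 of 16 further semaphorins. After TGF-β1 in NC cells 10 of the 54 were higher and 6 lower, or 29.6% against 15.3% of all genes tested, with a median log2 fold change of −0.07 against 0.005 over all genes tested. In siPdcd5 cells 6 were higher and 12 lower, or 33.3% against 16.1% of all genes, with a median of −0.11 against −0.03 over all genes. With 1 library left out, the 16 genes called in NC cells became 11 to 19, and the 18 in siPdcd5 cells became 12 to 26. With the other settings, which include leaving out both libraries that stood apart, they numbered 12 to 22 and 16 to 25. Among these semaphorins the largest change was that of Sema4f, a membrane-bound class 4 semaphorin, which rose from 0.844 to 0.989 CPM in NC to 3.58 to 5.76 CPM in NC + TGF-β1 (log2 fold change 2.38, SE 0.29, edgeR adjusted p = 3.99e-05) and rose in siPdcd5 cells as well (2.41, SE 0.26, adjusted p = 1.50e-05). Plxnd1, the receptor of Sema3e, rose in NC cells (0.86, SE 0.15, edgeR adjusted p = 0.00105), and Sema4b rose there by 0.85 (SE 0.19, adjusted p = 0.00693). In siPdcd5 cells neither of them was called higher. There 0 of 8 plexins were called higher and 3 lower, and Sema4f was the 1 of 9 semaphorins called higher. Dpysl3, a cytosolic protein of the family that relays semaphorin signals, rose in both NC (1.17, SE 0.09, edgeR adjusted p = 6.46e-07) and siPdcd5 cells (0.92, SE 0.09, adjusted p = 6.72e-06). Its relative Dpysl5 fell in NC (−0.80, SE 0.18, edgeR adjusted p = 0.00748) and siPdcd5 cells (−0.77, SE 0.19, adjusted p = 0.0117), and in siPdcd5 cells this was lost without siPdcd5 replicate 3 or siPdcd5 + TGF-β1 replicate 1, at −0.57 and −0.68. Efnb3, an ephrin ligand, fell in NC (−1.27, SE 0.26, edgeR adjusted p = 0.00356) and siPdcd5 cells (−1.55, SE 0.26, adjusted p = 0.000657). In siPdcd5 cells the Eph receptor Epha1 rose by 1.05 (SE 0.23, edgeR adjusted p = 0.00529) and Epha7 fell by 0.74 (SE 0.19, adjusted p = 0.0177), the latter not past the threshold in 3 of 12 fits that left out 1 library.

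After the knockdown 0 of the 54 other guidance genes were past the threshold of edgeR's test, without or with TGF-β1, where 3.44% and 1.55% of all genes tested were, with median log2 fold changes of −0.04 and −0.12 against 0.02 and −0.02 over all genes tested. At an unadjusted p under 0.05 there were 8 without and 15 with TGF-β1, against 1949 and 1711 of the 12425 genes tested. DESeq2 gave 2 genes without TGF-β1, Farp1 and Rnd1, and 1 with it, Epha7, against 714 and 458 over all genes. For the interaction 0 of the 54 were past the threshold of edgeR's test, and 7 were at an unadjusted p under 0.05, against 638 of the 12425 genes tested. The summed level of 5 neuronal markers was 3.22 to 5.12 CPM in NC, 11.1 to 19.0 CPM in NC + TGF-β1, 2.77 to 8.19 CPM in siPdcd5 and 6.32 to 9.87 CPM in siPdcd5 + TGF-β1, and its part in the changes of the guidance genes after TGF-β1 was not tested. The sum was mostly Tubb3, with means of 10.6 CPM in NC + TGF-β1 and 5.81 CPM in siPdcd5 + TGF-β1. After TGF-β1 in siPdcd5 cells the means of the other 4 markers were lower, but their libraries overlapped. Syt1, as an example, had means of 1.54 CPM (SD 1.42) and 0.848 CPM (SD 1.01), with n = 3 each. Whether Slit2 and Sema3a differ from the list in this was not tested, because they were chosen for their pattern.

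**Figure D5:**
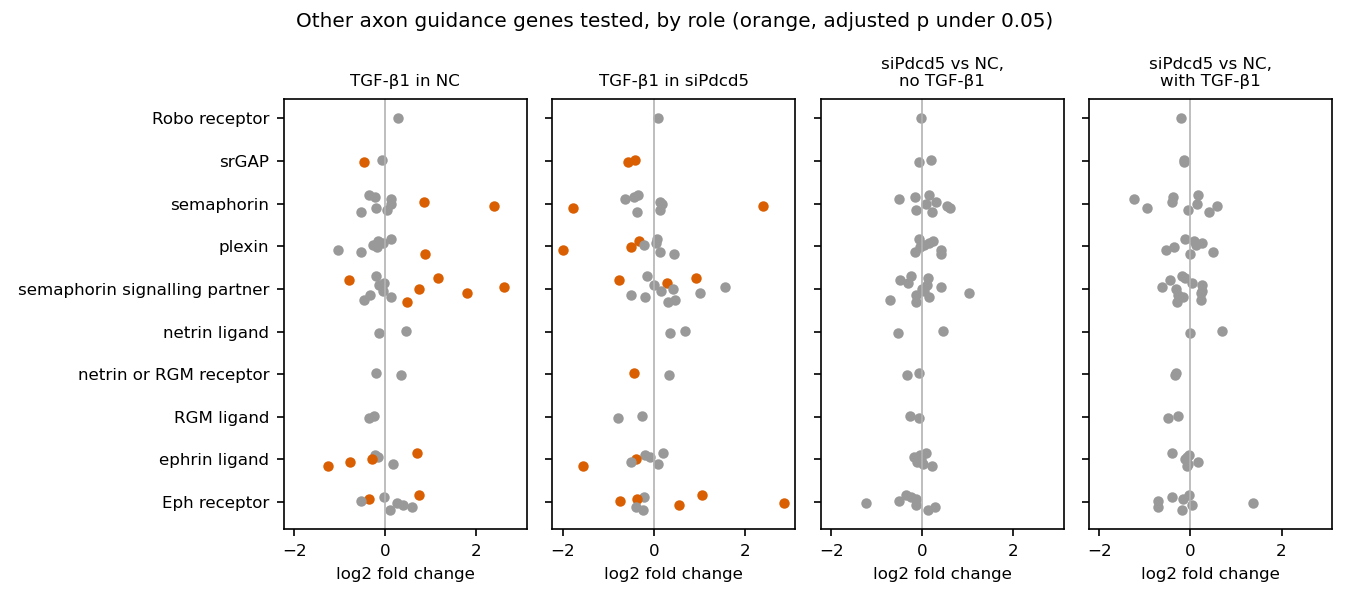
Log2 fold changes (horizontal axis) of the 54 other axon guidance genes tested, by role (rows), in the 4 comparisons (panels), with genes past an adjusted p of 0.05 in orange. The orange points number 16 and 18 after TGF-β1 in NC and siPdcd5 cells and 0 in both knockdown panels.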

How the data were processed

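The authors sequenced single-end QuantSeq libraries, aligned them with Bowtie2 to mm10 and used Bedtools to count alignments, unique and multiple, over each gene, and the deposited values are whole-number counts per gene symbol, 1 table per library. Quantile normalization in edgeR, which the study names, is not in these counts. The annotation and the use of strand are not given in the sources used here. Genes that share reads with copies are uncertain because multiple alignments were counted. Of 23282 symbols, 44 repeats were kept as separate genes.

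Values were computed with R 4.3.3, edgeR 4.0.16, limma 3.58.1 and DESeq2 1.42.0. The default filter of edgeR (a minimum count of 10 and a total of 15) left 12425 genes, which were scaled by TMM and fitted with the quasi-likelihood functions in 1 model of the 4 groups; the common biological coefficient of variation was 0.132. A gene was called at an adjusted p (Benjamini-Hochberg, over all genes tested) under 0.05. CPM uses TMM-scaled library sizes, log2 CPM a prior count of 2, and standard errors and 95% intervals come from the same fit.

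The members, the gene lists and the rule for named genes were chosen with earlier results of these data known. The rule named each member in every comparison, up to 6 other guidance genes per comparison with the largest change among those past the threshold whose mean log2 CPM was 1 or more, and the 3 nearest genes of members spanning at least 1 log2 unit, from genes at a mean log2 CPM of at least 3. Farp1, Rnd1, Unc5b, Sema4a, Plxnb2, Ephb6 and Sema3f, and Epha7 after the knockdown, were named after their values were seen. Promoters, microRNAs and motif shares come from RefSeq tables of GRCm38.p6, in which 10 of 10 members matched, and gene positions from the GENCODE annotation of GRCm38. Totals of 12809857 to 17714828 counts set the precision, and without molecular identifiers the limit of 3 counts covers counting error only. The script was tested on simulated data. The alternatives were upper-quartile factors, no filter, at least 10 counts in every library, the 6 libraries compared, quantile normalization with limma-trend, DESeq2, a replicate block and each library left out. Leaving out both libraries that stood apart was chosen after seeing the data.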

Additional observations from a re-analysis of the deposited data

Results flagged for a closer look

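Rnd1, a small GTPase that binds plexins, stood out because its TGF-β1 libraries lay on opposite sides in NC and siPdcd5 cells, with every treated library below the untreated ones in NC and above them in siPdcd5. Its level was 6.97 to 7.30 CPM in NC, 4.34 to 6.13 CPM in NC + TGF-β1, 2.95 to 5.28 CPM in siPdcd5 and 5.55 to 6.78 CPM in siPdcd5 + TGF-β1. The log2 fold change was −0.47 (SE 0.21) in NC and 0.47 (SE 0.21) in siPdcd5 cells, and the interaction was 0.94 (SE 0.30), which was not past the threshold over all genes (edgeR adjusted p = 0.881). The share of all genes with the same separation of libraries is not given here, so that the pattern of Rnd1 is a description only.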

How the results depend on the processing

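Of the members' values past the threshold 0 changed sign under the alternatives run, and no scaling moved the median of all genes by over 0.1 log2 units. The count of members past the threshold after TGF-β1 in siPdcd5 cells, 2 in the main test, was 4 with quantile normalization and limma-trend, 4 with DESeq2, 5 without both libraries that stood apart, and 1 to 4 when 1 library was left out. Without that pair of libraries the member counts in the other comparisons were 4, 3 and 3, and 0 for the interaction. After the knockdown the 0 other guidance genes became 2 with DESeq2, 4 without both libraries (Unc5b, Farp1, Sema4a and Epha7, lower in each case) and 0 to 1 with 1 library left out, and with TGF-β1 they became 1, 3 (Plxnb2, Ephb6 and Sema3f, lower in each case) and 0 to 1. Farp1 was past the threshold without NC + TGF-β1 replicate 2 (adjusted p = 0.048), and with TGF-β1 Epha7 without NC + TGF-β1 replicate 1 (0.0349) and Plxnb2 without NC + TGF-β1 replicate 2 (0.044). For the interaction the 0 other guidance genes became 1 without both libraries, Ephb6 (−0.70, adjusted p = 0.0333), and the interactions of Sema3c and Sema3e, not past the threshold, went to −0.08 and −0.05. The cause of these changes was not tested. The labels give each group the same replicate numbers, and the mean correlation of same-numbered deviations was 0.11, 0.0021, 0.02 and −0.14 over the 4 comparisons, so that the numbers were not taken as pairs. With a replicate block the members past the threshold numbered 2, 2, 2, 2 and 0 over the 4 comparisons and the interaction, with Nrp2 after TGF-β1 in NC cells no longer past it, and the other guidance genes numbered 13, 17, 0, 0 and 0. At 0 to 7 counts per library, Slit3, Robo1, Robo2 and Sema7a could not be compared at this depth.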
